A study of Mus musculus with 6 samples.

Results

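The transcripts described here are those of 10 neuropeptide genes that mark inhibitory interneurons of the cortex: Sst, Npy, Vip, Cck, Crh, Tac1, Tac2, Cort, Penk and Pdyn. They were chosen by name, and each was found by its Ensembl identifier among the 38355 genes of the deposited counts. All 10 passed the filter on low counts, which left 17120 genes for testing. Whole cortical hemispheres of C57BL/6 wild-type mice, 3 brains aged 6 months and 3 brains aged 16 months, were sequenced as polyadenylated RNA to ask what changes in the cortex with age. The mice carried no transgene, the only agent given was chloral hydrate for anaesthesia before dissection, and the methods, in their part on sorted cells, give males as the sex used in RNA sequencing. The housing text among the labels names 3 months as the younger age where the titles and the methods give 6. Between 29797253 and 46519280 counts per sample fell on genes, so that 3 counts correspond to at most 0.10 CPM, the unit used for levels here. CPM are counts relative to the library total, scaled with TMM factors, and all log2 fold changes are 16 over 6 months.

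Neuropeptides are cut from larger precursor proteins in the secretory pathway, stored in dense-core vesicles, and released to act on G protein-coupled receptors. In the cortex most of them are made by GABAergic interneurons and divide these cells into classes: somatostatin (Sst) marks dendrite-targeting cells, vasoactive intestinal peptide (Vip) marks cells that inhibit other interneurons, and neuropeptide Y (Npy) marks neurogliaform and some somatostatin cells. Cck and, in other brain regions, Penk, Pdyn and Tac1 are also made by projection neurons, so that a hemisphere measures the sum over all of these cells.

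The opioid and somatostatin families can be read in the coding sequence, which GENCODE gives for GRCm38. Penk codes for the precursor of the enkephalins and Pdyn for that of the dynorphins, and Penk repeats the short unit that codes the enkephalin core, with 7 such units in 807 coding bases. A stretch of Penk is shown because it was the member that differed with age. The stretch lies at chr4:4134220-4134354 on the minus strand in exon 2, and capitals mark the enkephalin core units.
Penk: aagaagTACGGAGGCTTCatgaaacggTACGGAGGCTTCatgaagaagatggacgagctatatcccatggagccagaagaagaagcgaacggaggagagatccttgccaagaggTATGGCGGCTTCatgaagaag

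Sst and Cort, which encodes cortistatin, end in closely related peptides that bind the same receptors. Their last 45 coding bases are shown because this is the part they share. They lie at chr16:23889732-23889776 and chr4:149125267-149125311, both on the minus strand in exon 2, and aligned with a shift of 1 codon they match at 31 of 42 bases. Capitals mark the longest shared run, of 21 bases. The genes are otherwise distinct: no stretch of at least 100 bases of either was at least 97% identical to another annotated gene, so that neither has a near copy of that length to share reads with.
Sst: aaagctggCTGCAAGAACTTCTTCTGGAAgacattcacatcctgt
Cort: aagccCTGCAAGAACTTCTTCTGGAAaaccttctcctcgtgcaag

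Transcription of several neuropeptide genes is known to respond to cyclic AMP through the factor CREB. Of the members, 8 have an entry in the RefSeq promoter sequences (GRCm38.p6), which reach from some way before the start site to shortly after it; Crh and Penk have none. The full palindrome TGACGTCA was found in Sst alone of these 8, at 48 bases before the start site of its promoter entry, and is held by 1.79% of the 32851 promoters. GENCODE places the start of Sst further upstream, so that this match lies inside its gene span, chr16:23889573-23890958. The shorter TGACGT was found in Sst and Vip (7.51% of promoters), and TGACG in 5 of the 8, which added Cck, Tac1 and Cort (20.8% of promoters). Both strands were searched, and the shorter letters are contained in the longer ones. The surroundings of the match are shown for Sst at chr16:23890825-23890952 on the minus strand and for Vip at chr10:5639079-5639204 on the plus strand, with the match in capitals, because the levels of activity-induced genes are given below.
Sst: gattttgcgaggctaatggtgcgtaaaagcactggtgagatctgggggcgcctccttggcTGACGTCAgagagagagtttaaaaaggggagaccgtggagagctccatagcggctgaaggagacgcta
Vip: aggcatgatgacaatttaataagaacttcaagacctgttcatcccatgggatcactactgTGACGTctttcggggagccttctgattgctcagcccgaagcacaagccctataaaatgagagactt

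Per kilobase of exon, the members spanned a wide range of levels. Sst and Cck were the most abundant, with 191 ± 5.07 and 159.6 ± 5.23 CPM per kilobase at 6 months and 196 ± 12.8 and 169.5 ± 15.6 at 16 months (SD, n = 3 each), and the ranges of the pair over the 6 samples overlapped. Npy (86.2 ± 5.70 and 92.3 ± 5.77 CPM per kilobase at 6 and 16 months) and Penk (72.8 ± 1.81 and 86.5 ± 1.95) came next and overlapped as well. Vip stood apart from its neighbours at 18.6 ± 0.414 and 17.1 ± 1.71 CPM per kilobase (SD, n = 3). Pdyn, Tac1, Cort and Crh followed, each overlapping the next, from 9.23 ± 0.278 CPM per kilobase for Pdyn to 5.66 ± 0.235 for Crh at 6 months. Tac2, the neurokinin B precursor, was lowest, with 4.39 ± 0.439 and 4.27 ± 0.136 CPM per kilobase at 6 and 16 months.

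**Figure D1:**
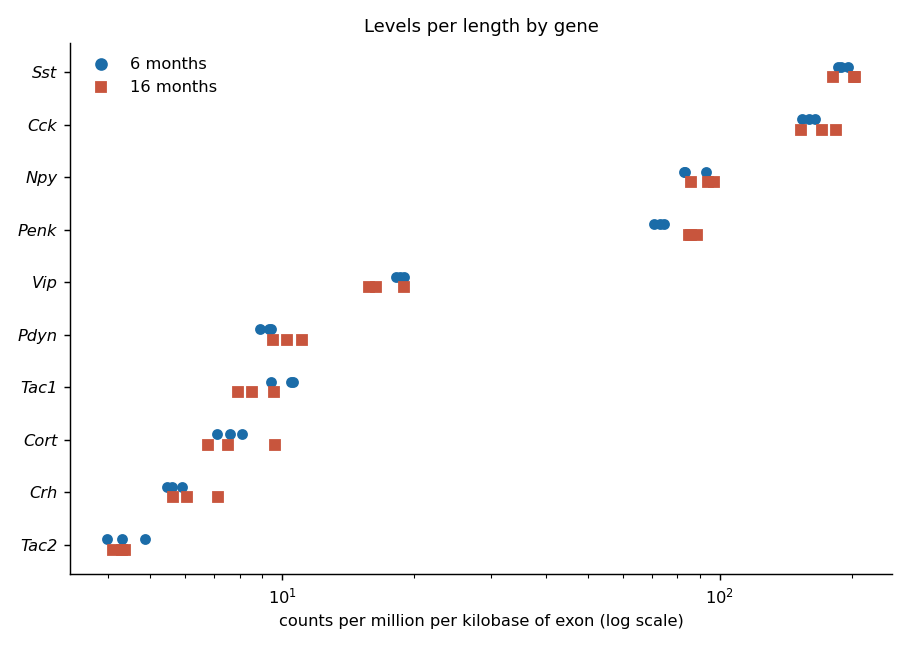
Level of each neuropeptide gene per kilobase of exon, in CPM per kilobase on a log axis, with 1 point for each sample (circles 6 months, squares 16 months). Sst and Cck lie highest, Tac2 lowest, and the points of both ages lie close together within each gene.

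Between the ages, 1 of the 10 genes was called: Penk, which was higher at 16 months. The others did not pass the threshold after adjustment over all tested genes. The quasi-likelihood test of edgeR, at a Benjamini-Hochberg adjusted p under 0.05, called 1.67% of all tested genes in either direction and 0.783% as higher, so that 1 of 10 is a count of a single gene and not a result about the group. At an unadjusted p under 0.05, Penk, Tac1 and Pdyn passed, as did 2987 of all 17120 tested genes. This is also the background for the unadjusted counts of the other lists below. The median log2 fold change of the members was 0.077, with 7 positive and 3 negative, and that of all tested genes was 0.0014. The samples of the ages lay apart for Penk and Pdyn, 2 of 10, whereas they did for 23.7% of all tested genes. Summed over the 10 genes, the level was 657 ± 17.3 CPM at 6 months and 693 ± 26.9 CPM at 16 months (SD, n = 3 each; exact permutation test, two-sided, p = 0.2, where 0.1 is the smallest p that 3 against 3 samples allow). In whole tissue, fewer cells of a class and less RNA per cell cannot be told apart, and this holds for all values given here.

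**Figure D2:**
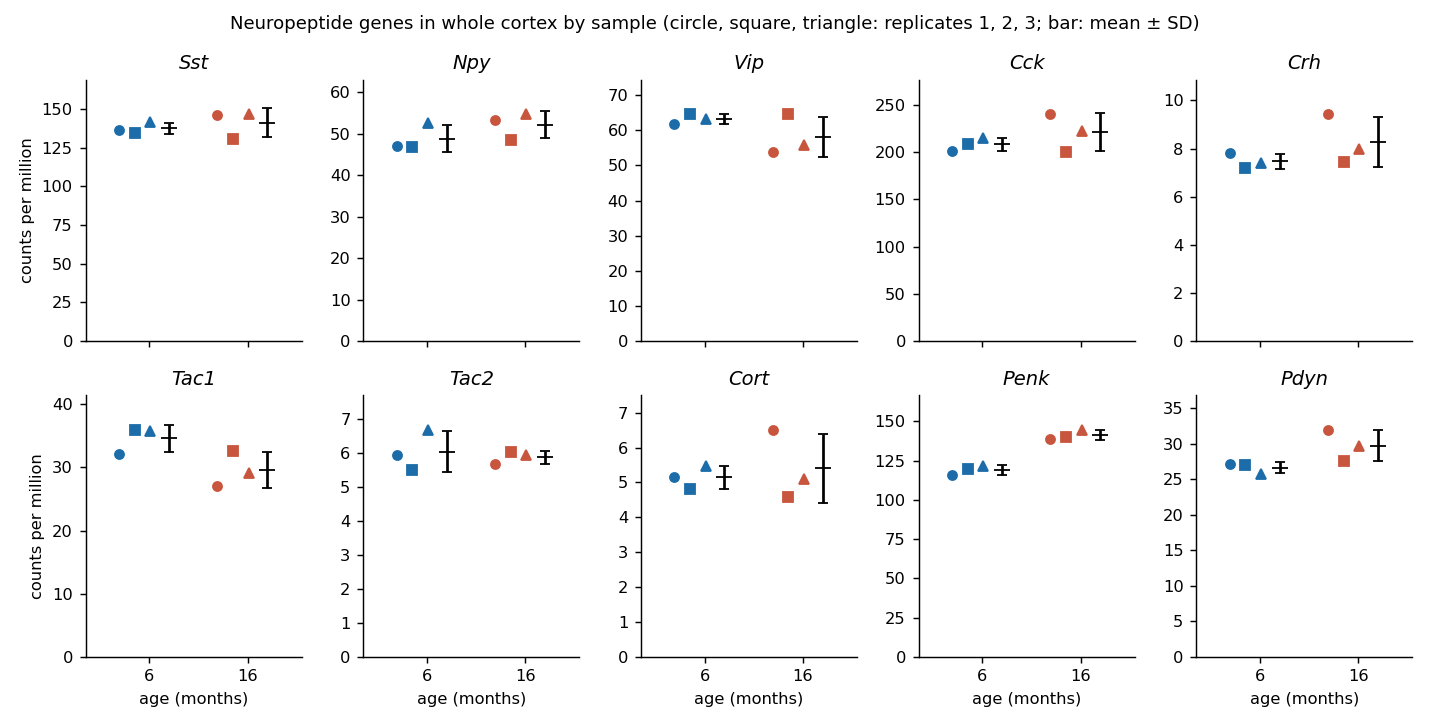
Level of the 10 genes in CPM (y axis, from 0) at 6 and 16 months, with circles, squares and triangles for replicates 1, 2 and 3 and bars for the mean ± SD. The 3 samples of 16 months lie between 139 and 145 CPM for Penk, above the 116 to 122 CPM of the samples of 6 months, whereas in most other genes the ages overlap.

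Penk was 115.8, 119.5 and 121.6 CPM in the samples of 6 months and 138.7, 140.4 and 144.9 CPM in those of 16 months (replicates 1, 2 and 3). The lowest aged sample thus lay above the highest young one. The mean went from 119.0 ± 2.95 to 141.3 ± 3.19 CPM (SD, n = 3 each), or 0.25 as a log2 fold change (standard error 0.050). With edgeR and Benjamini-Hochberg adjustment the quasi-likelihood test gave an adjusted p = 0.0404. This is a difference of 18.8%, with a 95% interval from 9.94% to 28.3%. The gene lies on chromosome 4 from 4133531 to 4138819 of GRCm38. It shares 233 exonic bases with A830012C17Rik on the opposite strand, and reads from these bases cannot be assigned with certainty. A830012C17Rik had between 8 and 20 counts per sample, where Penk had 3586 to 5429. The call was lost when 1 sample of 6 months was left out, with a log2 fold change of 0.23, 0.25 and 0.26 (adjusted p = 0.224, 0.216 and 0.199 without replicates 1, 2 and 3, same edgeR test and Benjamini-Hochberg adjustment), and without replicate 3 of 16 months (0.23, adjusted p = 0.238). It was also lost with upper quartile scaling, by a narrow margin (0.23, adjusted p = 0.0508, edgeR with Benjamini-Hochberg adjustment).

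Pdyn, on chromosome 2 from 129686565 to 129699844, was 27.2, 27.0 and 25.7 CPM at 6 months and 32.0, 27.6 and 29.6 CPM at 16 months. The ages did not overlap, although replicate 2 of 16 months lay just above the highest young sample. The log2 fold change was 0.16 with a 95% interval from 0.0089 to 0.31, and the adjusted p was 0.261 (edgeR, Benjamini-Hochberg adjustment). Without replicate 2 of 16 months the value was 0.21 and passed the threshold (adjusted p = 0.0420, edgeR with Benjamini-Hochberg adjustment). That fit called 12.7% of all tested genes, against 1.67% with all 6 samples.

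The somatostatin family showed no detectable difference in the fit without offsets. Sst lies on chromosome 16 from 23889573 to 23890958 and Cort on chromosome 4 from 149125034 to 149126763. Sst was 136, 135 and 142 CPM at 6 months and 146, 130.5 and 147 CPM at 16 months. The lowest and the highest value of Sst were both in aged samples. Its log2 fold change was 0.038 with a 95% interval from -0.096 to 0.17, that is from a 6.42% lower to a 12.7% higher level. Cort was 5.14, 4.80 and 5.48 CPM at 6 months and 6.52, 4.59 and 5.09 CPM at 16 months. Replicate 1 of 16 months alone lay above the young samples, and without it the log2 fold change of Cort went from 0.067 to -0.091, neither of them past the threshold.

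The tachykinin precursors Tac1, which codes for substance P and neurokinin A, and Tac2 were both lower on average at 16 months, and neither passed the adjusted threshold. They lie on chromosome 6 from 7554879 to 7565834 and on chromosome 10 from 127724478 to 127731768. Tac1 was 32.1, 36.0 and 35.7 CPM at 6 months and 27.0, 32.6 and 29.1 CPM at 16 months. Replicates 1 and 3 of 16 months lay below all young samples, and replicate 2 lay among them. The log2 fold change of Tac1 was -0.23 with a 95% interval from -0.40 to -0.048 (adjusted p = 0.188, edgeR with Benjamini-Hochberg adjustment). Without replicate 2 of 16 months it was -0.30 and passed the threshold (adjusted p = 0.0180, same edgeR test, Benjamini-Hochberg adjustment), in the fit that called 12.7% of all tested genes. Tac2 was 5.95, 5.50 and 6.70 CPM at 6 months and 5.67, 6.03 and 5.94 CPM at 16 months, with all aged samples inside the range of the young ones. Its log2 fold change was -0.048 (95% interval from -0.26 to 0.16), and 0.033 without replicate 3 of 6 months.

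Vip, on chromosome 10 from 5639218 to 5647617, was 61.8, 64.6 and 63.2 CPM at 6 months and 53.8, 64.7 and 55.7 CPM at 16 months. As in Tac1, replicates 1 and 3 of 16 months were low and replicate 2 was not. The log2 fold change of Vip was -0.12 with a 95% interval from -0.28 to 0.036 (adjusted p = 0.414, edgeR with Benjamini-Hochberg adjustment). Without replicate 2 of 16 months it was -0.21 (adjusted p = 0.0254, same edgeR test, Benjamini-Hochberg adjustment), again in the fit that called 12.7% of all tested genes. Crh, the precursor of corticotropin-releasing hormone and in the cortex found in a part of the Vip cells, lies on chromosome 3 from 19693401 to 19695396 and was 7.81, 7.20 and 7.39 CPM at 6 months and 9.44, 7.43 and 7.99 CPM at 16 months. Replicate 1 of 16 months was the highest, and the log2 fold change of 0.15 had a 95% interval from -0.069 to 0.37.

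Npy, on chromosome 6 from 49822710 to 49829507, was 47.1, 46.8 and 52.5 CPM at 6 months and 53.3, 48.6 and 54.8 CPM at 16 months. The ages overlapped, and the log2 fold change of 0.098 had a 95% interval from -0.054 to 0.25. Cck, the member with the most counts, lies on chromosome 9 from 121489824 to 121495694 and was 201, 209 and 215 CPM at 6 months and 241, 200.1 and 223 CPM at 16 months. Its aged samples reached both further up and further down than the young ones, and the log2 fold change was 0.087 (95% interval from -0.068 to 0.24). For both genes the adjusted p was at least 0.503 (edgeR, Benjamini-Hochberg adjustment).

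The samples of 16 months varied more than those of 6 months in 7 of the 10 genes, which was so for 75.5% of tested genes, and the direction of their deviations followed the base composition of the transcripts. The median SD of log2 CPM over the members was 0.053 at 6 months and 0.12 at 16 months. Replicate 1 of 16 months was higher than replicate 2 by 0.50 in Cort (58.5% GC), by 0.16 in Sst (56.0% GC) and by 0.27 in Cck, whose GC content lies between these, on the log2 scale. It was lower in the genes with the least GC, with a difference of -0.27 in Vip (38.7% GC) and of -0.27 in Tac1 (42.8% GC). Over the 10 members this difference and GC content had r = 0.804, and over the 16904 tested genes with a value r = 0.636. The points share their libraries and are not independent. Between replicates 1 and 2 of 6 months, r was 0.568 over the members and 0.163 over all genes. Not every member lay on the line of all genes in the aged pair. Penk (52.7% GC) and Tac2 (53.2% GC) had differences of -0.018 and -0.087, where the median of genes around 53.0% GC was 0.12. Sst also lay below the median of its GC content, Vip, Crh, Pdyn and Cort lay above it, and Npy, Cck and Tac1 were nearest to it.

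**Figure D3:**
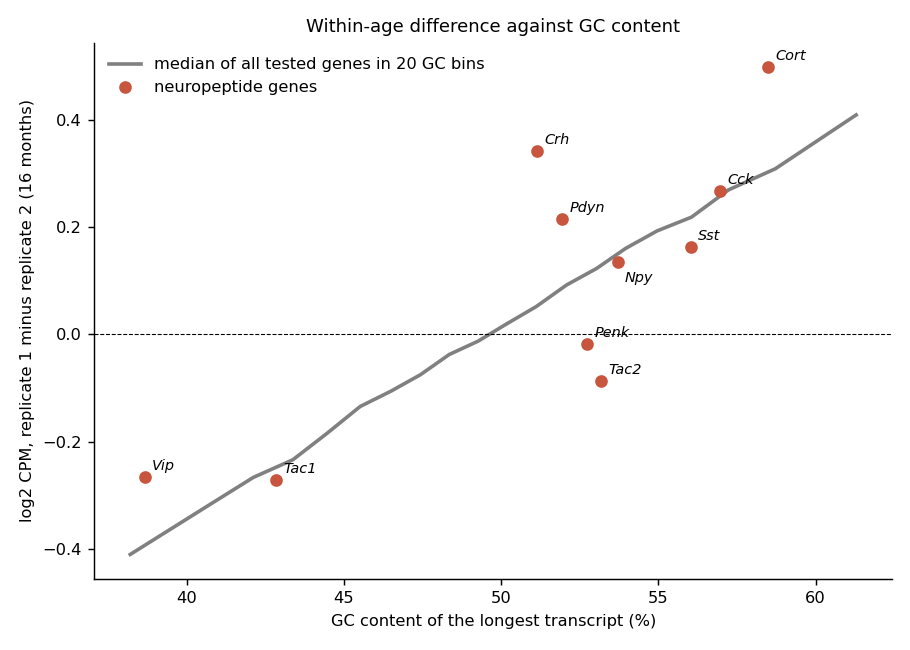
Difference in log2 CPM between replicates 1 and 2 of 16 months (y axis) against GC content of the longest transcript in percent (x axis), for the 10 genes (points) and as the median of all tested genes in 20 bins of GC content (line). Vip and Tac1 lie low at little GC, Cort lies highest at most GC, and Penk lies near 0.

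Because the deviations followed GC content, the ages were also compared with offsets for GC content and transcript length, estimated in each sample from all genes. This fit called 6 of the 10 members where 13.9% of all tested genes were called. Penk had a log2 fold change of 0.28 (edgeR with offsets, Benjamini-Hochberg adjusted p = 0.000267). Sst, Npy, Cck and Pdyn were called as higher at 16 months, with log2 fold changes of 0.13, 0.19, 0.17 and 0.15 and adjusted p between 0.00594 and 0.0496 (same edgeR test, Benjamini-Hochberg adjustment). Tac1 was called as lower, with -0.16 (adjusted p = 0.0256, same edgeR test, Benjamini-Hochberg adjustment). On this scale Sst was 131, 129 and 138 CPM at 6 months and 144, 143 and 149 CPM at 16 months, so that the aged samples lay above the young ones. The share of all tested genes whose ages lie apart on this scale was not computed. The difference of Vip shrank to -0.012 with a 95% interval from -0.11 to 0.081, and Crh, Tac2 and Cort were not called. The fit treats the estimated offsets as known, and the calls of Sst, Npy and Cck were made in this fit and in the same fit with the replicate numbers as a block, and in no other fit. Both offsets were applied together, and the part of each in these calls was not tested. The longest transcripts of Sst, Npy and Cck have 721, 566 and 799 bases, those of Tac1 and Pdyn 1975 and 2386. Replicates 1 and 2 of 16 months deviated with GC content in opposite directions (r = 0.588 and -0.582 over all tested genes with a value).

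**Figure D4:**
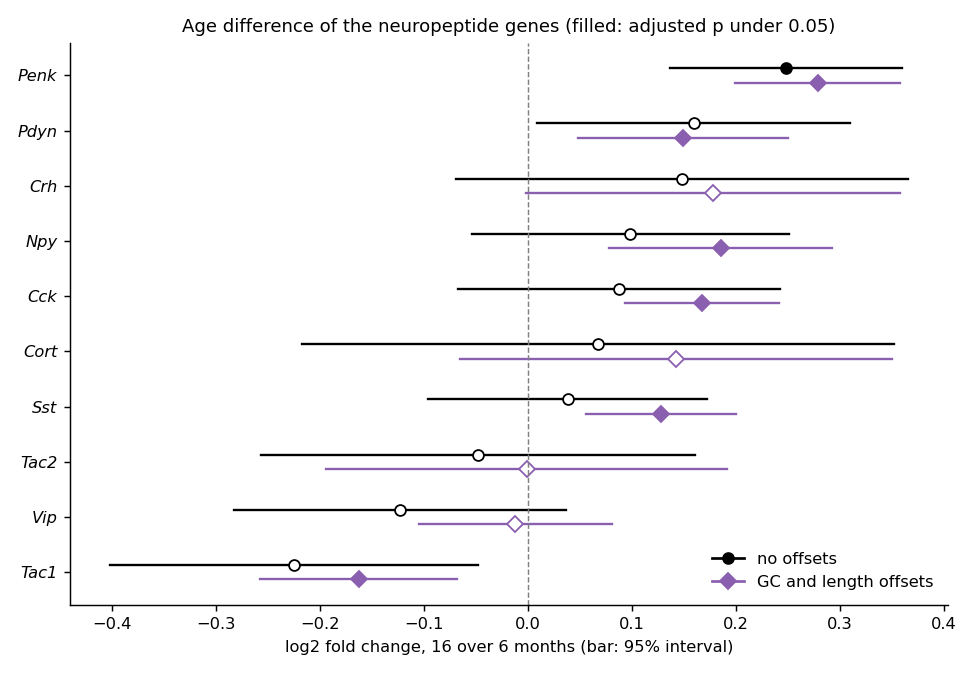
Log2 fold change of each gene, 16 over 6 months (x axis), with its 95% interval, without offsets (circles) and with offsets for GC content and transcript length (diamonds), filled where the adjusted p was under 0.05. Penk is filled in both fits, at 0.25 and 0.28, and the intervals without offsets of 7 genes include 0.

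To set the peptides against the amount of GABAergic transcripts, the mean log2 CPM of 8 pan-GABAergic genes was subtracted in each sample. Among these are Gad1 and Gad2, which make GABA. Neither edgeR's quasi-likelihood test nor DESeq2's Wald test called any of the 8 (0 each), 3 had an unadjusted p under 0.05, 5 had a positive and 3 a negative log2 fold change with a median of 0.15, and their summed level was 1257 to 1287 CPM at 6 months and 1376 to 1411 CPM at 16 months. Their mean log2 CPM was 6.32 to 6.34 at 6 months and 6.37 to 6.41 at 16 months. The subtracted mean itself thus lay apart between the ages. Relative to these genes, Penk differed by 0.19 and Tac1 by -0.29 between 16 and 6 months on the log2 scale, and for both genes the ages did not overlap (exact permutation test, two-sided; p = 0.1 for each, the lowest value that 3 against 3 samples allow, and 0.5 after Benjamini-Hochberg adjustment over the 10 genes). Vip differed by -0.19 (p = 0.2, exact permutation test), Sst by -0.026 (p = 0.9) and the others by between -0.098 and 0.094 (p of at least 0.3). In CPM without this subtraction the ages of Tac1 overlapped. How many of all tested genes lie apart on the relative scale was not computed. Of 10 genes of the somatostatin class and its origin in the medial ganglionic eminence, with Satb1, Nos1 and Grin3a as the most abundant, 0 were called by either tool and 1 had an unadjusted p under 0.05, and their log2 fold changes had a median of 0.059. Of 11 genes of the Vip and Lamp5 classes, Calb2, which codes for calretinin, rose from 11.7 ± 0.329 to 15.1 ± 1.01 CPM (SD, n = 3 each), and had a log2 fold change of 0.37 and an adjusted p = 0.0348 (edgeR, Benjamini-Hochberg adjustment). Without replicate 1, 2 or 3 of 6 months or replicate 3 of 16 months Calb2 was not called (adjusted p from 0.152 to 0.192, edgeR with Benjamini-Hochberg adjustment), with a log2 fold change of at least 0.33 in each. The other 10 genes of that list were not called, and the log2 fold changes of the list lay between -0.27 and 0.37. With the offsets 4 pan-GABAergic genes were called as higher and 1 as lower, 1 gene of the somatostatin class as higher, and of the Vip and Lamp5 classes 2 as higher and 2 as lower.

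No receptor was called in the filtered fit without offsets. Of 21 receptor genes for these peptides, 18 were tested and 0 were called, with a median log2 fold change of 0.071. In this list 4 genes had an unadjusted p under 0.05, and DESeq2's Wald test called 0 as well. Without the filter on low counts edgeR called 1 receptor, Cckar, which is named after its value was seen and had 4, 1 and 2 counts at 6 months and 13, 15 and 8 at 16 months. Per kilobase, the most abundant receptor of somatostatin and cortistatin was Sstr4, with 19.2 ± 0.537 and 21.6 ± 1.63 CPM per kilobase at 6 and 16 months (SD, n = 3 each) and a log2 fold change of 0.17. For cholecystokinin it was Cckbr (0.0086), for corticotropin-releasing hormone Crhr1 (0.10), for neuropeptide Y Npy1r (-0.12), for vasoactive intestinal peptide Vipr1 (0.040) and for the opioid peptides Oprd1 (0.11), each given as a log2 fold change with an adjusted p of at least 0.406 (edgeR, Benjamini-Hochberg adjustment). The tachykinin receptors Tacr1 and Tacr3 were both under 0.7 CPM per kilobase at either age. With the offsets, Sstr2 and Sstr4 were called as higher (adjusted p = 0.0216 and 0.0253, edgeR with Benjamini-Hochberg adjustment), 2 of 18; Sstr2 is named after its value was seen.

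The genes that process and store peptide precursors were not called in that fit either, 0 of 15, with a median log2 fold change of 0.099 and 12 positive values. An unadjusted p under 0.05 was reached by 6 of them, and DESeq2's Wald test called 1, Scg5. With the offsets 4 were called as higher (Cpe, Chga, Scg2 and Vgf) and 1 as lower (Scg5). These 5 genes are named after their values were seen. Cpe, the carboxypeptidase that trims basic residues from cut peptides, had 2413 ± 79.0 CPM at 6 months and 2711 ± 33.7 CPM at 16 months (SD, n = 3 each), and had a log2 fold change of 0.17 and an adjusted p = 0.116 (edgeR, Benjamini-Hochberg adjustment). Scg5, the chaperone of the convertase Pcsk2, had 243 ± 4.15 and 208 ± 8.65 CPM, with -0.23 and an adjusted p = 0.0663 (same edgeR test, Benjamini-Hochberg adjustment). Among 10 genes that bind or degrade peptides, Dpp4 was called, and with the offsets 3 were lower, Dpp4 among them, and 1 was higher. This peptidase, which removes the first residues of neuropeptide Y among other substrates, fell from 10.8 ± 0.837 to 7.59 ± 1.00 CPM (SD, n = 3 each), and had a log2 fold change of -0.50 and an adjusted p = 0.0430 (edgeR, Benjamini-Hochberg adjustment). Its call was lost when the same 4 samples as for Penk, replicates 1, 2 and 3 of 6 months and replicate 3 of 16 months, were left out in turn (adjusted p from 0.124 to 0.225, same edgeR test, Benjamini-Hochberg adjustment). Crhbp, which binds corticotropin-releasing hormone and is named after its value was seen, had a log2 fold change of -0.19 and an adjusted p = 0.159 (same edgeR test, Benjamini-Hochberg adjustment). With the offsets Crhbp was among the genes called as lower (-0.18, adjusted p = 0.0275, edgeR with Benjamini-Hochberg adjustment). Of 27 other neuropeptide precursors, 12 passed the filter and 0 were called, with a median log2 fold change of 0.12. In that list 2 genes had an unadjusted p under 0.05, Adcyap1 with a log2 fold change of 0.16 and Rln1 with 0.86 at 13 to 24 counts per sample, and DESeq2's Wald test called 0. With the offsets Rln1 was called, 1 of 12.

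Penk, Pdyn and Tac1 are also abundant in projection neurons of the striatum, Penk and Pdyn in the dentate gyrus, and Tac2 in the medial habenula, so the markers of these regions were measured in the same libraries. Of 10 striatal genes, 2 rose and none fell. Pde10a went from 226 ± 3.40 to 281 ± 8.18 CPM and Six3 from 4.14 ± 0.0632 to 6.82 ± 0.454 CPM (SD, n = 3 each; log2 fold changes 0.31 and 0.72, adjusted p = 0.0145 and 0.00394, edgeR with Benjamini-Hochberg adjustment). The other 8 striatal genes were not called, among them the dopamine receptors Drd1 and Drd2, with log2 fold changes of 0.065 and 0.16. The median log2 fold change of the list was 0.0999. Its summed level was 703 to 716 CPM at 6 months and 789 to 804 CPM at 16 months, of which Pde10a alone made up 226 and 281 CPM on average. Of 7 genes of the dentate gyrus, 3 rose (Dsp, Lct and C1ql2, log2 fold changes 1.26, 1.12 and 0.86), and the list summed to 67.2 to 67.3 CPM at 6 months and 85.5 to 92.7 CPM at 16 months. Of 8 genes of the thalamus, 5 rose, namely Tcf7l2, Prkcd, Tnnt1 and Plekhg1 (log2 fold changes 0.44, 0.91, 0.61 and 0.32) and Shox2 (4.06, from 4 counts in each sample of 6 months to 48, 59 and 65 at 16 months), and the sums were 96.9 to 101 CPM and 124 to 137 CPM. In the medial habenula list Nwd2 rose (0.26), while Chrnb4 and Pou4f1 had at most 6 counts in any sample and were not tested. Gpr151, Chrnb3 and Chrna3 were tested and not called. They averaged 0.433, 0.325 and 0.0987 CPM per kilobase over both ages, where Nwd2 averaged 5.47, so that Nwd2 dominates this list. When each sample was left out in turn, Six3, Dsp, Lct, Prkcd and Shox2 were called in all 6 fits. Pde10a, C1ql2, Tcf7l2, Tnnt1, Plekhg1 and Nwd2 were called in 2 and lost without replicate 1, 2 or 3 of 6 months or replicate 3 of 16 months (adjusted p from 0.0632 to 0.274, edgeR with Benjamini-Hochberg adjustment), and their log2 fold changes stayed positive, Pde10a between 0.29 and 0.34. None of the striatal, dentate gyrus and thalamic genes was at 0. The part of these regions in the differences of Penk and Calb2 was not tested.

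**Figure D5:**
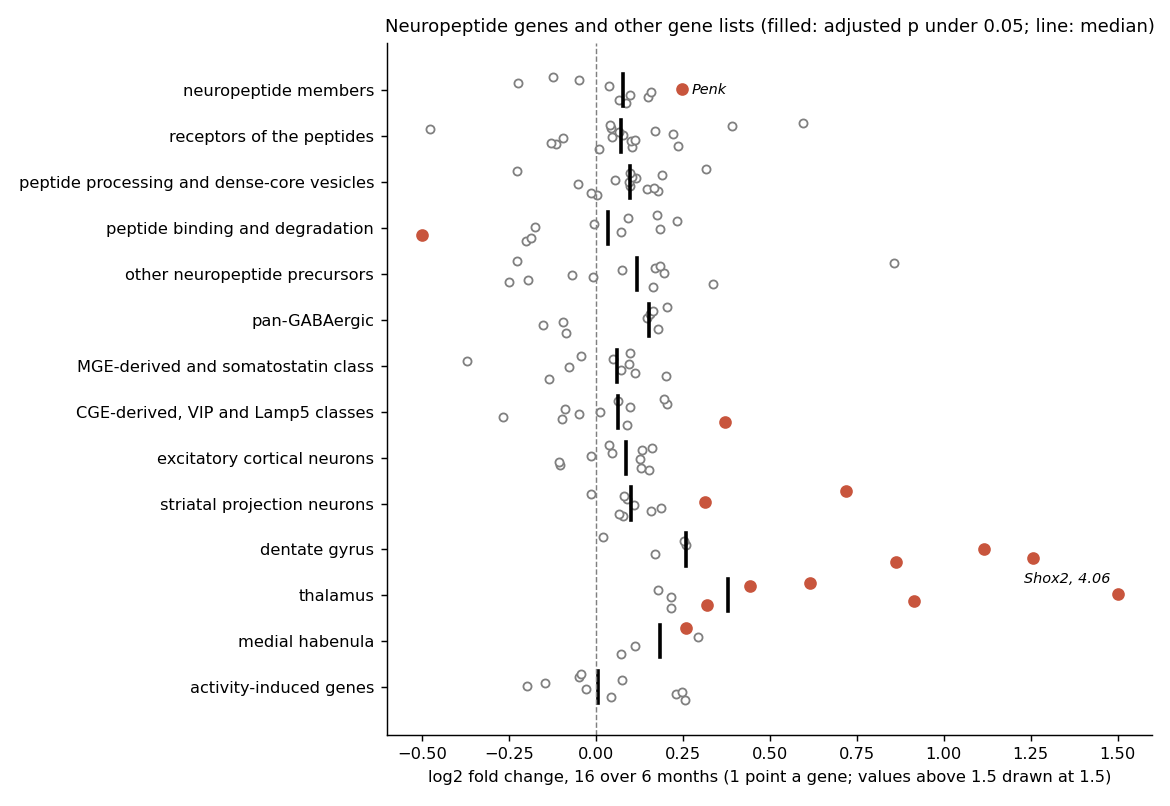
Log2 fold change, 16 over 6 months (x axis), of each tested gene in the 14 lists (rows), with filled points for genes with an adjusted p under 0.05 and a line at the median of each list; Shox2 (4.06) is drawn at the right edge. Penk is the filled point among the 10 neuropeptide genes, and filled points are most frequent in the lists for the thalamus (5 of 8) and the dentate gyrus (3 of 7).

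Genes that neurons induce upon activity, whose products and partners regulate several neuropeptide genes, were not called without offsets, 0 of 10, with 5 positive and 5 negative log2 fold changes. The most abundant were Egr1, Arc and Nr4a1, with log2 fold changes of 0.23, 0.26 and -0.044 and adjusted p of 0.0882, 0.149 and 0.777 (edgeR, Benjamini-Hochberg adjustment). Of this list 5 genes had an unadjusted p under 0.05, and DESeq2's Wald test called 1, Egr1. With the offsets 3 were called as higher (Arc, Egr1 and Egr2) and 2 as lower (Fosb and Fosl2), and Egr2, Fosb and Fosl2 are named after their values were seen. Excitatory neuron genes, 10 in all and led by Camk2a, Slc17a7 and Tbr1, were not called, and their log2 fold changes lay between -0.11 and 0.16, with 2 genes at an unadjusted p under 0.05 and 0 called by DESeq2's Wald test. With the offsets 1 of them was called as higher and 1 as lower.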

How the data were processed

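Polyadenylated RNA from 3 brains per age was sequenced as paired reads, and the authors deposited 1 table of raw counts per sample, which ends in HTSeq-style summary lines. Per the methods, reads were trimmed with fastq-mcf, aligned with STAR to mm10 and counted with HTSeq on Ensembl genes. The submitters' processing notes instead name CASAVA 1.8.2, STAR 2.3.0e and featureCounts 1.5.0-p1. The Ensembl release and the strand setting are not given in the sources used here, and the kit does not mark strand. The summary lines were left out: 70.8% to 76.5% of read pairs were on genes, 22.0% to 27.7% on no feature and 1.42% to 1.57% ambiguous. Of 38355 identifiers, 36602 matched GENCODE vM21 (GRCm38).

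Groups came from the age in the labels. Genes were kept by edgeR's filterByExpr, scaled with TMM factors (0.988 to 1.01) and compared by edgeR's quasi-likelihood test (edgeR 4.0.16, R 4.3.3) with Benjamini-Hochberg adjustment over all tested genes at 0.05. CPM per kilobase used the union of exons, and log2 CPM a prior count of 2. Offsets for GC content and transcript length were medians over 20 bins per sample. Alternatives were DESeq2 1.42.0, other scalings and filters, a replicate block, the offsets and leaving out each sample. The fitting steps were tested on simulated data. Total counts set a floor, 3 counts, of 0.0640 to 0.10 CPM, and this covers counting error only. Near-identical copies were sought with blastn 2.17.0, and promoters came from RefSeq.

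The members and lists were chosen with earlier results of these data known. Named genes are all members, the called genes of the other lists, the most abundant genes of a cell type list without calls, and the most abundant receptor of each peptide; exceptions are stated where they occur. A gene and a sequence that these rules would name are not reported here.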

Additional observations from a re-analysis of the deposited data

How the results depend on the processing

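Penk stayed called in 13 of 18 alternatives, with a log2 fold change between 0.23 and 0.28. It was not called with upper quartile scaling (0.23, 0 members called, and 39.2% of calls higher against 46.9%) or without replicate 1, 2 or 3 of 6 months or replicate 3 of 16 months (adjusted p between 0.199 and 0.238), where the fits called 48 to 58 genes in all. Crh was called in none of the 18. Leaving out 1 sample moved Penk between 0.23 and 0.26, Tac1 between -0.30 and -0.16, Vip between -0.21 and -0.071 and Pdyn between 0.10 and 0.21, and of the last 3 each was called in 1 of the 6 fits, the one without replicate 2 of 16 months. It moved Sst between 0.0092 and 0.091, Npy between 0.063 and 0.16, Cck between 0.022 and 0.15 and Crh between 0.043 and 0.22, none of them called. It moved Tac2 between -0.10 and 0.033 and Cort between -0.091 and 0.17, neither called: Tac2 turned positive without replicate 3 of 6 months and Cort negative without replicate 1 of 16 months. Over these 6 fits 0 to 4 members, 5 to 34 genes of the other lists and 48 to 2211 of all genes were called, most without replicate 2 of 16 months (2211), then without replicate 1 (995). The cause was not tested.

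Without a filter 648 genes were called, 19 of them list genes, and by DESeq2's Wald test 471. With the offsets, 6 members (Sst 0.13, Npy 0.19, Cck 0.17, Tac1 -0.16, Pdyn 0.15 and Penk 0.28), 42 list genes and 2383 genes were called. With the offsets and the replicate numbers as a block, the values were 0.13, 0.19, 0.17, -0.16 and 0.15 for the first 5, again with 6 members, and 48 list genes and 3138 genes in all (18.3% of those tested). Replicate 3 of 16 months, whose deviations followed GC content least at that age, alone against 6 months gave 3 members (Vip -0.18, Tac1 -0.25 and Penk), 34 list genes and 1786 genes, with Cort at -0.024; the lone sample is assumed to vary like the others. Penk relative to the median of the pan-GABAergic list was 0.22.

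The samples share only a replicate number: deviations from the age means correlated with r = 0.180, 0.0958 and 0.0351 for numbers 1, 2 and 3. With the number as a block, 2 members, Penk and Tac1 (-0.23, adjusted p = 0.0488 from edgeR with Benjamini-Hochberg adjustment), 19 list genes (Arc, Egr1, Scg5 and Vgf among those not called without it) and 783 genes in all (4.57% of those tested) were called.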

Other observations

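Several genes of the lists lay at the limit of detection and did not pass the filter on low counts. Cckar, the receptor for cholecystokinin of the gut and of some brain regions, was among them, and it was called by edgeR when the filter was left out, as given above. The vasopressin precursor Avp had 6, 5 and 1 counts at 6 months and 13, 12 and 8 counts at 16 months. Both are named after their values were seen. The hypothalamic precursors Oxt, Hcrt and Pmch had at most 7 counts in any sample, and Nmu had 0 in all 6 samples, where 3 counts correspond to between 0.0640 and 0.10 CPM.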
